A study of Mus musculus with 24 samples.

Results

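The immunoglobulin variable (V) genes are the germline segments from which B cells assemble the variable part of their antibodies. They were followed here in RNA-Seq counts from 4 tissues of Trex1-/- mice, namely tongue, muscle, stomach and heart. Members were the genes that the GENCODE M21 annotation calls IG_V_gene, whose symbols start with Ighv (heavy chain), Igkv (kappa light chain) or Iglv (lambda light chain), and that had at least 50 counts summed over the 24 samples. This gave 134 genes out of 216 such annotated genes, namely 63 of 113 Ighv, 68 of 100 Igkv and 3 of 3 Iglv genes, among 54532 genes in the count files. Members were thus chosen by their summed counts, so that a member had to be expressed somewhere, and the number of members detected in the richest samples follows in part from that choice. Just inside the limit lay Ighv1-37 with 52 counts and Igkv1-122 with 53 counts, and just outside it lay Ighv5-2 with 48 counts and Igkv4-69 with 46 counts. The 134 members held 62702 counts, whereas the other 82 genes held 1094 counts together and 18 of them had 0.

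All mice carried the Trex1 knockout (labelled Trex1-KO), including the controls, and no wild-type mice were analysed here. Loss of the DNA exonuclease TREX1 in every cell leaves self-DNA to activate the cGAS-STING pathway and gives a lupus-like disease. Each comparison set SN-011, a small molecule antagonist of STING, against control within 1 tissue. The 8 groups held 3 samples each. The labels call the controls untreated and give SN-011 at 5 mg/kg, 3 times per week for 4 weeks. The study's methods give instead a vehicle of Tween 80 in PBS for the controls, a higher dose given every day for a shorter time, injection into the peritoneum, and mice of about 1 month of age. Samples are numbered 1 to 3 within each group, and neither source says whether samples with the same number came from the same mouse or that the samples of a group came from separate mice, so that p-values measure the spread between these samples only.

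A B cell joins 1 V segment to D and J segments, or to a J segment alone in a light chain, and the joined exon is spliced to a constant region such as Igha, Ighm or Igkc. Each clone of B cells or plasma cells thus expresses 1 heavy and usually 1 light V gene, and plasma cells, which secrete antibody, hold far more of this mRNA than resting B cells. The mucosa of the digestive tract is rich in plasma cells that make IgA, whereas heart, muscle and tongue hold few cells of this lineage in health. RNA of whole tissue does not separate fewer such cells from less antibody mRNA per cell, and counts per V gene do not record which V, J and constant segments were joined.

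The germline sequences of 4 genes that led the V counts of a sample, or of a locus, are shown to fix what was counted. Each is the coding part of the V exon, for Igkv2-109 only its last 300 bases, 5′ to 3′ on the strand of the gene, as the GENCODE M21 transcripts give it. Capitals run from the last in-frame cysteine codon, which borders the third complementarity-determining region, to the 3′ end of the segment. Coordinates are those of the bases shown. Igkv12-44 (ENSMUSG00000096422) lies at chr6:69814631-69814928 on the minus strand of GRCm38, Igkv10-96 (ENSMUSG00000094420) at chr6:68631963-68632260 on the minus strand, Igkv2-109 (ENSMUSG00000105606) at chr6:68302859-68303158 on the plus strand, and Ighv1-82 (ENSMUSG00000095127) at chr12:115952538-115952831 on the minus strand. The 3 kappa segments each carried 26 bases in capitals, whereas the heavy segment carried 9, because in a heavy chain most of this loop comes from the D and J segments.
Igkv12-44: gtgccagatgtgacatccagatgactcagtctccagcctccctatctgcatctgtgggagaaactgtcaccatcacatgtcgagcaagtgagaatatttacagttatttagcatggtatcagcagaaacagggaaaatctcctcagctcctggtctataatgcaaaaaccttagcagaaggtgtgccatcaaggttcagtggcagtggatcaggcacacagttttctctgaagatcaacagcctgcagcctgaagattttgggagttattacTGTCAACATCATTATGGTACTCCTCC
Igkv10-96: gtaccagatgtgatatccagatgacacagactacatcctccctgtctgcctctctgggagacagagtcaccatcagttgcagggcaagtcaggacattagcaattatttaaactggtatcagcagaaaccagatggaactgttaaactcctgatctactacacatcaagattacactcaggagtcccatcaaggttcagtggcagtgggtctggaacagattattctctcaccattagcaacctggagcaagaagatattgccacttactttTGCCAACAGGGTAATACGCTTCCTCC
Igkv2-109: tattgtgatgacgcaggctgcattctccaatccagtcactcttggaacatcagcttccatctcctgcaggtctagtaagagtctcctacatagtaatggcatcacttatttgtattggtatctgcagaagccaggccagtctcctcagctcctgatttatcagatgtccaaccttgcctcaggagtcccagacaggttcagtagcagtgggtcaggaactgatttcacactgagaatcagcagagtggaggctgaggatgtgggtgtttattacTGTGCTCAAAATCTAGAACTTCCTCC
Ighv1-82: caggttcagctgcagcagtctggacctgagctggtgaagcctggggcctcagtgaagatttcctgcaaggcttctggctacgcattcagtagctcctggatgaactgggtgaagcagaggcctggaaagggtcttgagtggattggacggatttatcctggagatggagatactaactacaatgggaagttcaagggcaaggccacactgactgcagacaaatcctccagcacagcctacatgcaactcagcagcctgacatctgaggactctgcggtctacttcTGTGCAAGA

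A pair of kappa genes and a pair of lambda genes show how little separates some members that are counted apart. The last 300 coding bases of Igkv1-110 (chr6:68270968-68271267, plus strand) and Igkv1-117 (chr6:68121528-68121827, plus strand) differed at 10 positions, and those of Iglv1 (chr16:19085017-19085316, minus strand) and Iglv2 (chr16:19260401-19260700, minus strand) at 8 positions. Capitals mark the positions at which the 2 genes of a pair differ.
Igkv1-110: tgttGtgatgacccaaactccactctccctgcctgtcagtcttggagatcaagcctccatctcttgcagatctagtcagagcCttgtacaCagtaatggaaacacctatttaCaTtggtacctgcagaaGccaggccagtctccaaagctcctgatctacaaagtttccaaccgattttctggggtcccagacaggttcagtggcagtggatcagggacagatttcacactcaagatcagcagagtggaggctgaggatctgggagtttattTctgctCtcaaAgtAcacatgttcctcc
Igkv1-117: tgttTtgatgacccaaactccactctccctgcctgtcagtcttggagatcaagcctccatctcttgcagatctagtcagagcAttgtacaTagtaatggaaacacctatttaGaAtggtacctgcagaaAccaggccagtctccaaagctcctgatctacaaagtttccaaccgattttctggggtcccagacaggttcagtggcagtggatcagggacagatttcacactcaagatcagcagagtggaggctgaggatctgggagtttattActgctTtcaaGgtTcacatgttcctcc
Iglv1: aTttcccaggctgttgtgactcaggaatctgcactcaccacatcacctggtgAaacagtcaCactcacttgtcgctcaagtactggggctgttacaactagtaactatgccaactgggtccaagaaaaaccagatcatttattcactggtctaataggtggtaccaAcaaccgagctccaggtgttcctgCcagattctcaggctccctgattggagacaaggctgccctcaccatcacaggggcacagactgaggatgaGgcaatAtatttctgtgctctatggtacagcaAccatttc
Iglv2: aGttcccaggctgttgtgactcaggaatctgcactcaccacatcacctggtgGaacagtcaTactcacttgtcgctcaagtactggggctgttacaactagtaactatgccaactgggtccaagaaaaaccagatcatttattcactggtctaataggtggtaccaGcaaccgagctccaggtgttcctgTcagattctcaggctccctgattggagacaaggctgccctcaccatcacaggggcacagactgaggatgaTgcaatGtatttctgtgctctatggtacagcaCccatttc

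Over whole coding sequences, the median identity of a member to its closest annotated V gene was 94.0%, against 91.8% for the 82 genes outside the limit. In 11 of the 134 members, at least 1 stretch of 150 bases, the length of 1 read, occurred in another V gene or V pseudogene. Reads from such stretches are not uniquely mapped, and the somatic mutations of antibody genes can move a read to a near neighbour, so that counts of close relatives such as Igkv1-110 and Igkv1-117 are less certain than their sums. Another annotated gene overlapped 2 members, one of them Iglv1, which overlaps 2010309G21Rik, and whether the counting used strand is not certain from the sources. The annotated transcripts of the members were 284 to 425 bases long, and in 20 of 24 samples the gene with the most counts also had the most counts per base of transcript.

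Total counts per sample were 14253416 to 18443329, so that 3 counts, taken as the smallest number that can be shown, stood for 0.163 to 0.210 CPM (counts scaled to the size of the library, with edgeR's TMM factors where levels are summed over genes). The targeted gene, Trex1, had 0 counts throughout, which does not check the genotype because Atrip overlaps it. Control 1 of every tissue carried Xist (3060 counts or more) with 3 or fewer counts of Ddx3y, and the remaining 20 samples carried Ddx3y (825 counts or more) with 20 or fewer of Xist. The library of muscle SN-011 2 stood apart, with counts on 11546 genes where all others had 19798 or more. Stomach markers (7 genes of the gastric epithelium such as Atp4a, Gkn1 and Muc5ac) summed to 1172 and 117 CPM in heart control 2 and 3, 441 and 188 CPM in muscle control 2 and 3, and 1606 and 1511 CPM in tongue control 2 and 3, against at most 43.9 CPM in the other 12 samples of these tissues. Their part in the V counts was not tested.

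Stomach samples held 73.2% of all V counts and heart samples 25.1%, with 1.38% left to muscle and 0.324% to tongue. In the heart, V counts made 3656, 1590 and 6233 in controls 1 to 3 and 1034, 2194 and 1045 after SN-011. SN-011 hearts 1 and 3 lay below all controls and SN-011 heart 2 lay between controls 2 and 1, so that the groups overlapped. In the stomach the counts were 1656, 14608 and 18739 in the controls and 3969, 2017 and 4894 after SN-011. Stomach control 1, the sample with Xist, lay below all 3 SN-011 samples in counts, and the other controls lay far above them. In CPM it stood at 133.4, just above SN-011 stomach 2 at 132.8. In the muscle they were 194, 236 and 177 against 69, 103 and 85, with every SN-011 sample below every control. The tongue held 49, 55 and 17 counts in the controls and 53, 15 and 14 after SN-011, which overlapped.

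As a level, the summed V genes were 213.6 ± 112 CPM (SD, n = 3) in control hearts and 93.1 ± 44.2 CPM (n = 3) in SN-011 hearts, a log2 ratio of means of -1.20. In the stomach they were 681.2 ± 477 against 222.03 ± 84.1 CPM (n = 3 each), a log2 ratio of -1.62. Muscle had 10.8 ± 2.27 CPM in controls and 5.89 ± 2.17 CPM after SN-011, a log2 ratio of -0.88, and tongue 2.46 ± 1.28 and 1.67 ± 1.29 CPM, a log2 ratio of -0.56. Means were lower after SN-011 in all 4 tissues, but the groups overlapped in 3 of them, and no p is given for a sum over chosen members. The order of the control levels was stomach, heart, muscle and tongue. The heart and stomach controls overlapped, since stomach control 1 had 133.4 CPM against 109.5 to 332.6 CPM in the hearts, whereas muscle controls (8.91 to 13.3 CPM) lay below all hearts and above all tongues (1.06 to 3.55 CPM). Without stomach control 1 the log2 ratio in the stomach was -2.10, and without heart control 3 that in the heart was -0.73. In the tongue it was -1.42 without SN-011 1 and -0.20 without control 2, so that single samples set its size.

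**Figure D1:**
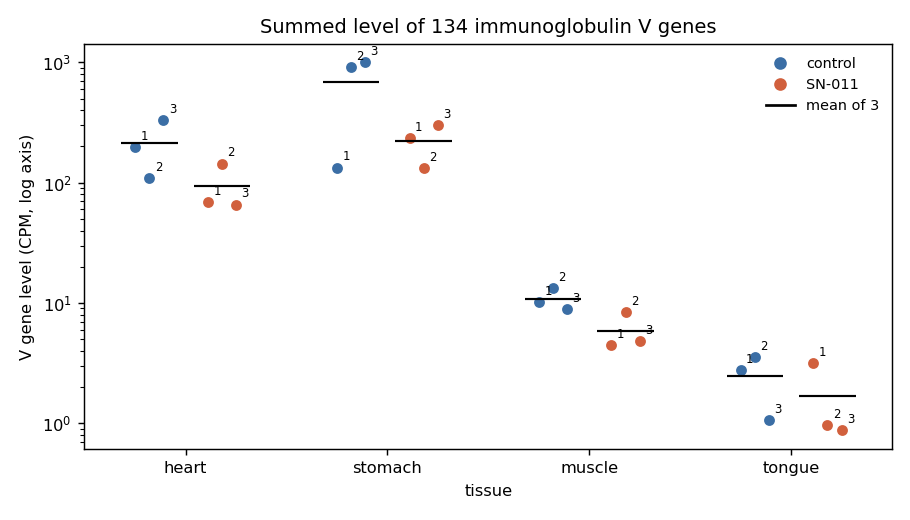
Summed level of the 134 V genes in CPM on a log axis, for the 24 samples by tissue, with controls in blue, SN-011 in orange, sample numbers beside the points and a bar at the mean of 3. Stomach and heart samples lie between 65.8 and 1000 CPM, muscle samples between 4.47 and 13.3 CPM and tongue samples between 0.870 and 3.55 CPM.

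All 134 members had at least 1 count in heart and also in stomach, against 119 in muscle and 69 in tongue. In the heart, 128, 122 and 134 members were detected in the controls and 111, 124 and 103 after SN-011. Stomach control 1 detected 73 members, fewer than any other stomach sample, and controls 2 and 3 detected 132 and 131, with 97, 95 and 115 after SN-011. Muscle controls detected 55, 80 and 58 members and SN-011 muscles 29, 2 and 40, without overlap between the groups. Tongue samples detected 22, 33 and 8 against 21, 8 and 6 members. The numbers did not follow V counts alone, since stomach control 1 had 73 members on 1656 counts and SN-011 heart 1 had 111 on 1034.

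To set depth aside, the number of members expected in 100 V counts drawn from each sample was computed, which the 6 heart, 6 stomach and 4 of the 6 muscle samples allowed. Hearts gave 44.6, 52.0 and 55.3 members in the controls and 50.3, 55.6 and 52.6 after SN-011. The groups overlapped, and the mean difference of 2.15 members was of the opposite sign to that of the raw numbers, -15.3. In 1000 V counts, which all 6 hearts allowed, the sign was that of the raw numbers (-6.47), with 111.02, 115 and 122 members in the controls and 110.6, 115.5 and 102.5 after SN-011. Stomachs gave 27.5, 34.7 and 44.6 in the controls and 44.2, 42.4 and 41.2 after SN-011. The SN-011 stomachs lay within the range of the controls. In 100 V counts every heart lay above every stomach, heart control 1 (44.63) only just above stomach control 3 (44.58). In 1000 V counts the tissues overlapped, with 102.5 members in SN-011 heart 3 and 109.8 in stomach control 3. In the muscle, the controls gave 43.1, 54.3 and 48.4, and SN-011 2 gave 2.00.

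**Figure D2:**
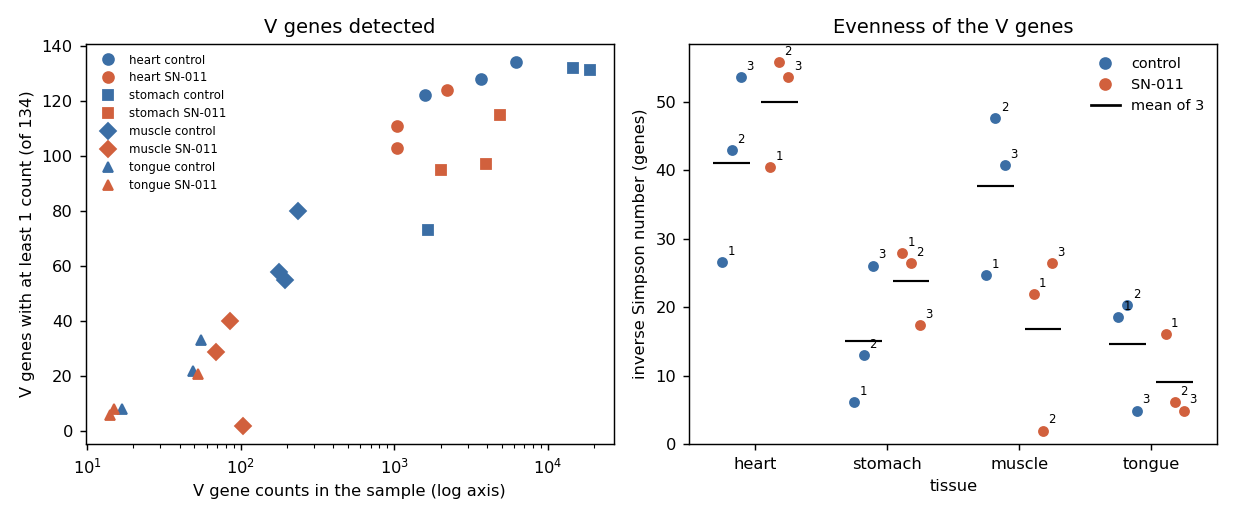
Left, the number of members with at least 1 count against the V counts of the sample (log axis), with 1 symbol per tissue and colour by treatment. Right, the inverse Simpson number of V genes per sample, with sample numbers and a bar at the mean of 3. Heart control 3 shows all 134 members on 6233 counts, and muscle SN-011 2 lies apart with 2 members on 103 counts.

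Dominance was read from the gene with the most V counts in a sample and from the inverse Simpson number, which is the number of equally abundant genes that would give the same concentration. Hearts were even. The leading gene took 9.76, 7.48 and 5.49% of V counts in the controls and 8.22, 5.47 and 4.50% after SN-011, and the inverse Simpson numbers were 26.6, 43.0 and 53.6 against 40.5, 55.8 and 53.7. Stomachs were more concentrated by the share of the leading gene, which was higher in each of them than in any heart. Their leading gene took 36.2, 20.003 and 10.7% in the controls and 12.3, 11.6 and 17.4% after SN-011, and their inverse Simpson numbers were 6.13, 13.0 and 26.1 against 27.9, 26.4 and 17.4. By the inverse Simpson number the 2 tissues overlapped, since heart control 1 (26.6) lay below SN-011 stomach 1 (27.9). In both tissues the treatment groups overlapped in both measures. In muscle controls the leading gene took 12.4, 5.51 and 5.08%, and in the SN-011 muscles 7.25, 56.3 and 9.41%. Tongue values rested on 14 to 55 counts, so that their shares are coarse. These shares carry the 95% Wilson intervals of their counts, for example 33.95 to 38.6% for stomach control 1, 8.84 to 10.8% for heart control 1 and 46.7 to 65.5% for muscle SN-011 2, which cover counting error only.

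Kappa genes held 63.1% of all V counts, heavy genes 30.2% and lambda genes 6.66%. In the annotation used here, the heavy V genes span 113578504 to 116000461 on chromosome 12 of GRCm38, the kappa V genes 67555497 to 70704177 on chromosome 6 and the lambda V genes 19085017 to 19260859 on chromosome 16. Kappa members lay on both strands of their locus, and the 25 on the plus strand held 40.4% of the kappa counts. In stomach control 1, heavy V genes made 12.1% of V counts, against 25.2 and 38.8% in controls 2 and 3 and 21.1 to 28.4% after SN-011. Lambda genes made 15.2% of V counts in stomach control 1 and at most 12.5% in any other heart or stomach sample.

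Igkv12-44 had the most counts of all members, 6376 or 10.2% of the total. It had 46, 2922 and 2010 counts in stomach controls 1 to 3 and 38, 234 and 851 in the SN-011 stomachs. It thus led stomach controls 2 and 3 and SN-011 stomachs 2 and 3, but not control 1 or SN-011 1. In the hearts it had 25, 31 and 126 counts against 7, 32 and 33. Igkv1-117 had 188, 1254 and 181 counts in the stomach controls and 76, 174 and 94 after SN-011, so that 1 control held most of them. Igkv1-110, its close relative, had 600, 79 and 144 counts against 277, 42 and 573, with the groups overlapping, and it led stomach control 1 and heart control 3, the latter with 342 counts.

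Among heavy genes, Ighv1-82 had 2012 counts, of which 1809 were in stomach control 3 alone. The other 5 stomachs held 1, 40, 0, 8 and 15 counts of it. Ighv1-18 had 1120 of its 1697 counts in stomach control 2, and Ighv1-64 had 719 of its 999 in stomach control 3. Of the 134 members, 31 had over 50% of their counts in 1 sample, and the sample with the most counts of a member was stomach control 3 for 62 members, stomach control 2 for 24, heart control 3 for 16 and heart control 1 for 12. Among the 3 lambda genes, Iglv1 had 144, 35 and 280 counts in heart controls and 53, 106 and 47 in SN-011 hearts, and it led SN-011 heart 3, whereas Iglv2 led SN-011 heart 2 with 120 counts. Iglv3, the least of them, had 602 counts over the 24 samples.

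Some genes had high counts in samples of 1 number across tissues, and such counts also follow the V total of a sample. Igkv10-96 had 357 counts in heart control 1 and led it, and its 24 counts led muscle control 1, but stomach control 1 had 28 counts of it, fewer than any other stomach. Igkv9-124 had 119 counts in heart control 2, against 1 to 32 in the other hearts, and 9 in muscle control 2, against 0 to 4 in the other muscles. But stomach control 2 had 92 counts of it, fewer than the 145 of stomach control 3. Its share there, 0.630%, also lay below the 0.983% of SN-011 stomach 1. Igkv2-109 had 85 counts in heart SN-011 1, against 2 to 25 in the other hearts, and 202 in stomach SN-011 1, against 1 to 108 in the other stomachs, and 5 counts each in muscle SN-011 1 and 3, against 0 or 1 in the other muscles. Igkv6-23, which led muscle control 2 with 13 counts, had 66 counts in heart control 2 and 300 in stomach control 2. The latter was the highest stomach count, but the highest heart count was 74 in control 3. As a share of V counts it made 4.15% in heart control 2 against 1.19% in heart control 3. Its share in stomach control 2 (2.05%) lay below those of SN-011 stomachs 2 and 3 (2.93 and 3.13%). Igkv5-39 tied with Iglv1 for the lead of muscle control 3, with 9 counts each, and had 72 in heart control 3. That was the highest heart count but not the highest share, at 1.16% of V counts against 1.75% in heart control 1. These genes were picked because they led a sample, so their counts and shares are a description.

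**Figure D3:**
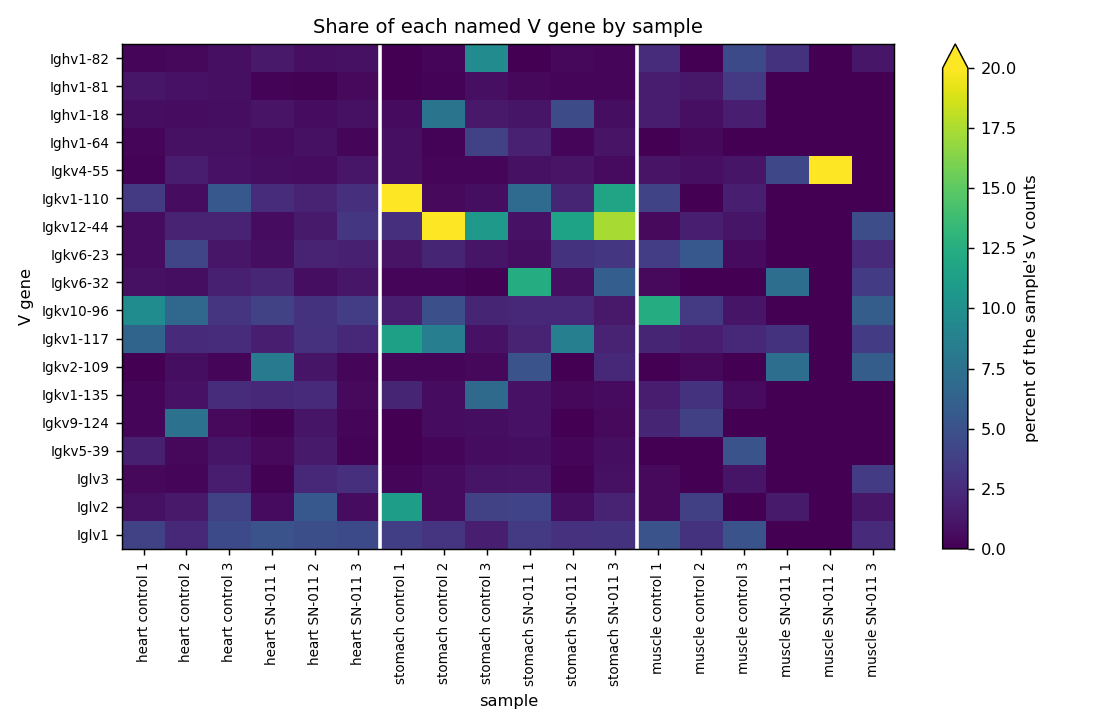
Percent of each sample's V counts that fell on 18 of the named V genes, in the heart, stomach and muscle samples. The scale ends at 20%, and the brightest cells are Igkv1-110 in stomach control 1 (36.2%), Igkv12-44 in stomach control 2 (20.003%) and Igkv4-55 in muscle SN-011 2 (56.3%).

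The muscle library SN-011 2 had 103 V counts on 2 genes only, 58 on Igkv4-55 and 45 on Igkv8-21, and 0 on heavy and lambda V genes, which allows a share of up to 2.91% of its V counts. In the other 5 muscles Igkv4-55 had 2, 2, 2, 3 and 0 counts. This library also had 24 counts of V pseudogenes, against at most 2 in the other muscles. Without it, the V level of the SN-011 muscles was lower still, with a log2 ratio to controls of -1.22.

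In the tongue, the 2 leading genes of controls 2 and 3 were those of the stomach sample with the same number. Tongue control 3 had 17 V counts, 5 of them on Igkv12-44 and 5 on Ighv1-82, and the 5 genes that led stomach control 3 held 58.8% of its V counts. Tongue control 2 had 7 counts on Igkv4-57-1 and 5 on Igkv12-44, the 2 leaders of stomach control 2 (1742 and 2922 counts), and the 5 leaders of stomach control 2 held 29.1% of its 55 V counts, against 27.3% for the 5 leaders of stomach SN-011 2. In tongue control 3, the leaders of stomach control 2 held 35.3%. The same 5 genes of stomach control 2 and of stomach control 3 held 0% and 8.16% of the counts of tongue control 1, and 18.9% and 15.1% of the 53 counts of SN-011 tongue 1, which had 8.46 CPM of stomach markers. Stomach markers stood at 1606 and 1511 CPM in tongue controls 2 and 3 and at 43.9 CPM in tongue control 1, and at 8.46 to 19.6 CPM in the SN-011 tongues. Heart and muscle controls 2 and 3 also held more stomach markers than control 1. The 5 leaders of stomach control 2 held 9.22, 7.11 and 6.63% of V counts in heart controls 1 to 3. In muscle controls 1 to 3 they held 5.15, 6.78 and 7.34%. The 5 leaders of stomach control 3 held 2.30, 6.86 and 6.58% in these hearts and 7.73, 6.78 and 6.78% in these muscles. The part of the stomach markers in the V counts of the 3 tissues was not tested. Igkv4-57-1 and, above, Igkv8-21 were named after their values were seen.

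Gene by gene, the effect of SN-011 was tested within a tissue with edgeR's quasi-likelihood method. All genes that passed its filter on low counts entered, and p-values were adjusted over them after Benjamini and Hochberg. In the heart, 71 of the 134 members passed the filter and 1 was called at an adjusted p under 0.05, against 0.848% of all 16151 genes tested in either direction and 0.328% in the lower one. That gene was Ighv1-81, with 44, 15 and 52 counts in the controls and 2, 2 and 5 after SN-011, every SN-011 heart lying below every control. Only its control counts reached the count limit of the filter, so the call describes a gene let in by its higher group. The log2 fold change of Ighv1-81 was -3.37 (SE 0.58) with an adjusted p of 0.0403 (edgeR). The call was lost when any 1 of 5 of the 6 hearts was left out, with adjusted p of 0.0672 to 0.226, and was kept without control 2. Next came Igkv10-96, with 357, 106 and 187 counts against 40, 64 and 38, a log2 fold change of -1.98 (SE 0.39) and an adjusted p of 0.0544, which did not pass.

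At an unadjusted p under 0.05, 22 of the 71 members (31.0%) stood out in the heart, all 22 lower after SN-011. Of all genes tested 22.4% did so, in both directions together. The median log2 fold change of the 71 was -1.17, against -0.01 over all genes. A gene could pass the filter through its higher group alone, so the count and the median describe the 71 and not all members. Over all 134 members, 20 (14.9%) had every SN-011 heart below every control in CPM and 0 had every SN-011 heart above, against 11.7 and 11.6% of the genes with 50 or more counts. Without heart controls 2 and 3, which held stomach marker counts, 53 members (39.6%) had all SN-011 hearts below the remaining control, against 30.2% of all such genes. That arm is 1 sample, control 1, the heart with Xist and without Ddx3y, so that sample and treatment cannot be told apart there. Among the 20 were Igkv16-104 with 21, 16 and 25 counts against 0, 4 and 0, and Ighv9-2 with 11, 25 and 11 counts against 1, 1 and 0, both named after their values were seen.

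In the stomach, 89 members passed the filter and 0 were called by edgeR's quasi-likelihood test, as were 0% of all 17031 genes. At an unadjusted p under 0.05 there were 14 members, 13 of them lower after SN-011, which is 15.7% of the 89 against 24.6% of all genes. DESeq2 and edgeR's exact test called 6 members each, and 2389 and 1835 of all 17031 genes. The smallest p belonged to Igkv1-135, with 34, 95 and 1291 counts in the controls and 38, 9 and 30 after SN-011, a log2 fold change of -4.05 (SE 1.18) and an adjusted p of 0.104. Control 3 alone lay far above the rest. Igkv6-32 went the other way, with 5, 38 and 26 counts in the controls and 490, 17 and 291 after SN-011, a log2 fold change of 3.50 (SE 1.04) and an adjusted p of 0.108 (edgeR). SN-011 2 lay among the controls. The median log2 fold change of the 89 was -1.07, against 0.00 over all genes, with the same limit of the filter. Over all 134 members, 11 (8.21%) had every SN-011 stomach below every control and 0 had every one above, fewer than the 13 and 15.8% of genes with 50 or more counts.

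In muscle and tongue, 0 members passed the filter, so none was tested (over all genes 0.0141% were called in muscle, 0.00704% lower, and 0% in tongue). Every SN-011 muscle lay below every control for 14 members (10.4%) and above for 0, against 17 and 10.2% of the genes with 50 or more counts, and for the same number, 14, without muscle SN-011 2. In the tongue both numbers were 0, against 7.8 and 8% of genes. With counts of 0 in many samples, ties prevent such a split for most members in these tissues.

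Whether the SN-011 effect differed between tissues was tested as an interaction in 1 fit of the 24 samples, in which 117 members passed the filter. None of the 6 pairs of tissues had a member called by edgeR, with unadjusted p under 0.05 for 8 of 117 members between heart and stomach, against 3360 of all 19731 genes, and for 1 to 3 members in each other pair, against 559 to 4746 genes. Over all 19731 genes, 2.01% were called between heart and stomach, 6.95% between stomach and muscle, 0.821% between stomach and tongue, 0.0355% between muscle and tongue, 0.00507% between heart and muscle and 0% between heart and tongue. The smallest adjusted p, 0.0683 (edgeR), was that of Igkv6-32 between heart and stomach, where it had 33, 12 and 109 counts in control hearts and 22, 17 and 13 after SN-011. Its effects differed by -4.79 on the log2 scale (SE 1.36), heart minus stomach, short of the threshold.

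By V gene family, the share of a family among the V counts of its locus was compared between groups as a description. Of 31 families, 4 had a higher share in every SN-011 heart than in every control and 3 a lower one, and in the stomach these numbers were 3 and 1. The groups overlapped for the remaining 24 families in the heart and 27 in the stomach. Among single genes with 50 or more counts, 11.6% had every SN-011 heart above every control in CPM and 11.7% below. In the stomach these shares were 15.8 and 13%, so that such splits were common over all genes. An exact test of 3 against 3 samples cannot give a p below 0.1, and shares within a locus depend on each other. Ighv4 and Igkv16, both lower in the heart, hold 1 member each. In the heart, Ighv1, the largest heavy family with 32 members, stood at 46.7 to 54.8% of heavy counts in controls and 60.5 to 64.2% after SN-011. Igkv4 stood at 6.26 to 13.9% of kappa counts against 16.3 to 19.968%, Igkv8 at 4.06 to 4.97% against 6.85 to 11.6%, and Igkv10 at 7.66 to 15.4% against 6.14 to 7.41%. In the stomach, Igkv6 stood at 4.40 to 6.90% of kappa counts in controls and 16.5 to 25.7% after SN-011, and Ighv5 at 2.01 to 3.00% of heavy counts against 8 to 13.3%. None of the families that stood apart in the heart did so in the stomach. These shares were not tested.

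The V counts were set beside those of the constant regions, which every antibody mRNA carries. In the heart, kappa V counts per 100 counts of the kappa constant gene Igkc were 46.7, 34.2 and 37.9 in the controls and 29.3, 28.1 and 29.2 after SN-011, with every SN-011 heart below every control. Their means were 39.6 ± 6.41 and 28.9 ± 0.644 (SD, n = 3 each). Heavy V counts per 100 counts of the heavy constant genes were 12.3, 9.74 and 9.39 against 6.68, 5.21 and 8.99, again without overlap. In the muscle, heavy V counts were 75, 90 and 95 in the controls and 21, 0 and 19 after SN-011, whereas heavy constant counts were 1526, 1613 and 2461 against 1923, 1210 and 2227. The V counts did not overlap and the constant counts did, giving 4.91, 5.58 and 3.86 heavy V counts per 100 constant counts in controls and 1.09, 0 and 0.853 after SN-011. Kappa V per 100 Igkc in the muscle overlapped, at 25.6 to 32.4 and 20.9 to 26.1. Igkc had 390, 401 and 277 counts in the control muscles and 201, 394 and 287 after SN-011. These lay below the heavy constant counts of each muscle. What part of the heavy constant counts came from mRNA with a V segment was not tested.

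In the stomach the ratios were low and spread. Kappa V per 100 Igkc was 4.45, 15.8 and 30.9 in the controls and 15.1, 10.1 and 13.3 after SN-011, and heavy V per 100 heavy constant counts was 0.459, 5.17 and 13.4 against 3.67, 2.28 and 3.09. Stomach control 1 had 27049 counts of Igkc, within the range of the other stomachs (15034 to 65083), so that its low V total of 1656 counts was not matched by a low constant region. Igha, the constant region of IgA, made 96.1% of its heavy constant counts and 82.4 to 93.1% of those of the other stomachs, whereas in hearts it made 30.9 to 78.0%. These ratios were chosen after the data were seen and were not tested.

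**Figure D4:**
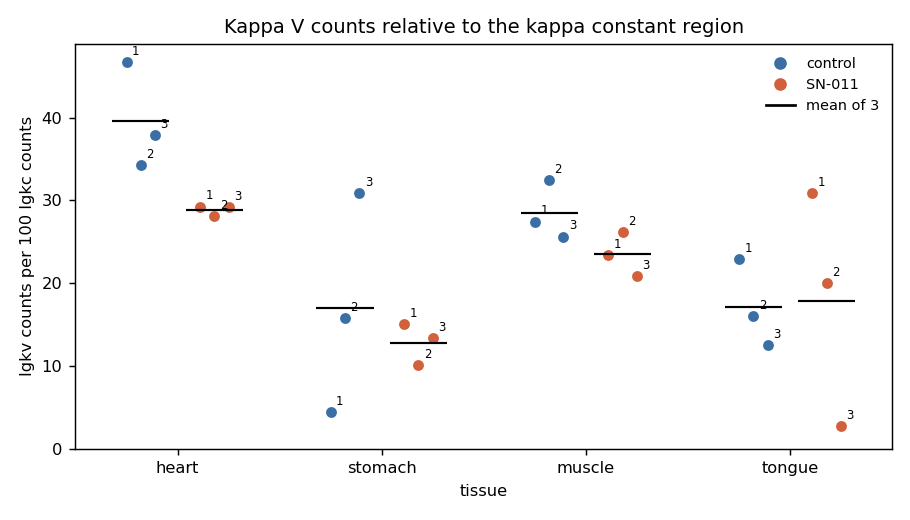
Kappa V counts per 100 counts of the kappa constant gene Igkc, for the 24 samples by tissue, with sample numbers and a bar at the mean of 3. The SN-011 hearts lie at 28.1 to 29.3, below the control hearts at 34.2 to 46.7, and stomach controls range from 4.45 to 30.9.

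Genes of the same lineage, from lists of B cell, plasma cell and related genes, were tested in the same fits. In the heart, 0 of 11 constant regions tested were called, all 11 with a log2 fold change below 0, and in the stomach 0 of 11, with 10 below 0. Ighg2c, the constant region of an IgG class, had the smallest p in both tissues, with a log2 fold change of -2.01 (SE 0.54) in the heart and an adjusted p of 0.0936, and of -1.37 (SE 0.42) in the stomach with an adjusted p of 0.110 (edgeR). Of the plasma cell genes, 1 of 9 tested was lower in the heart, Txndc5, a chaperone of the secretory pathway that other secreting cells use too, and 0 of 10 were called in the stomach. Of the B cell genes, such as Cd79a and Ms4a1 of the B cell surface, 0 of 8 were called in either tissue, and they summed to 31.2 to 446.3 CPM in control hearts and 13.8 to 187.8 CPM after SN-011. Of the genes of recombination and class switching 0 of 2 were called in the heart and 0 of 3 in the stomach, and of those for transport of IgA and homing of its cells 0 of 5 and 0 of 8. No gene of these 5 lists was called in muscle or tongue.

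Some markers of other cells differed between groups too. The 7 stomach markers summed to 28666 to 95450 CPM in the control stomachs and 5651 to 34958 CPM after SN-011, with overlap. The 5 keratins and related genes of squamous epithelium summed to 107.8 to 237.5 CPM against 451.0 to 1469 CPM in the stomachs, without overlap. The 5 red cell genes summed to 490.8 to 1392 CPM in control hearts and 1371 to 2503 CPM after SN-011, which overlapped narrowly. In muscle, where the V totals did not overlap, neither did several marker sums. Red cell genes were at 191 to 769 CPM in controls and 853 to 1155 CPM after SN-011, 5 macrophage genes at 260.3 to 316 against 367 to 395 CPM, 4 skeletal muscle genes at 107645 to 121584 against 132756 to 156852 CPM, and the stomach markers at 30.5 to 441 against 0 to 16.8 CPM. Heart control 3, with the most V counts of the hearts, also had the highest sum of B cell genes, 446.3 CPM, and 4 lymphoid stroma genes at 68.6 CPM. What part tissue make-up had in the V totals was not tested.

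The likeness of V gene profiles was compared between samples with at least 100 V counts. Measured as the overlap of shares, which sums the smaller share of each gene, samples of heart and stomach with the same treatment and number shared 35.9 to 57.5% (median 49.4%, 6 pairs) and the other 30 pairs 31.3 to 56.6% (median 43.5%). The most similar stomach sample was the one of the same treatment and number for 1 of 6 hearts. Hearts shared 46.5 to 68.2% among themselves and stomachs 32.2 to 60.9%. The overlap rests on abundant genes, and a correlation of log2 shares, which weighs rare genes as much as abundant ones, was added after the data were seen. It was 0.45 to 0.67 for the 6 pairs of the same treatment and number (median 0.55) and 0.30 to 0.54 for the other 30 (median 0.39), across 134 genes that are not independent. By this measure the most similar stomach was the one of the same treatment and number for 6 of 6 hearts, and by Spearman's rho for 5 of 6. In the other direction, the most similar heart was the one of the same treatment and number for 4 of 6 stomachs by r, and for 2 of the 4 muscles with enough counts. Heart control 2, which held the stomach markers, and stomach control 2 had the highest r of these, 0.67, and heart control 1 and SN-011 heart 2 had the lowest, 0.45 each. The highest r of any pair, 0.78, was between SN-011 stomachs 1 and 3, which bear different numbers. Points share library depth, germline sequence and mapping, and no test was made.

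**Figure D5:**
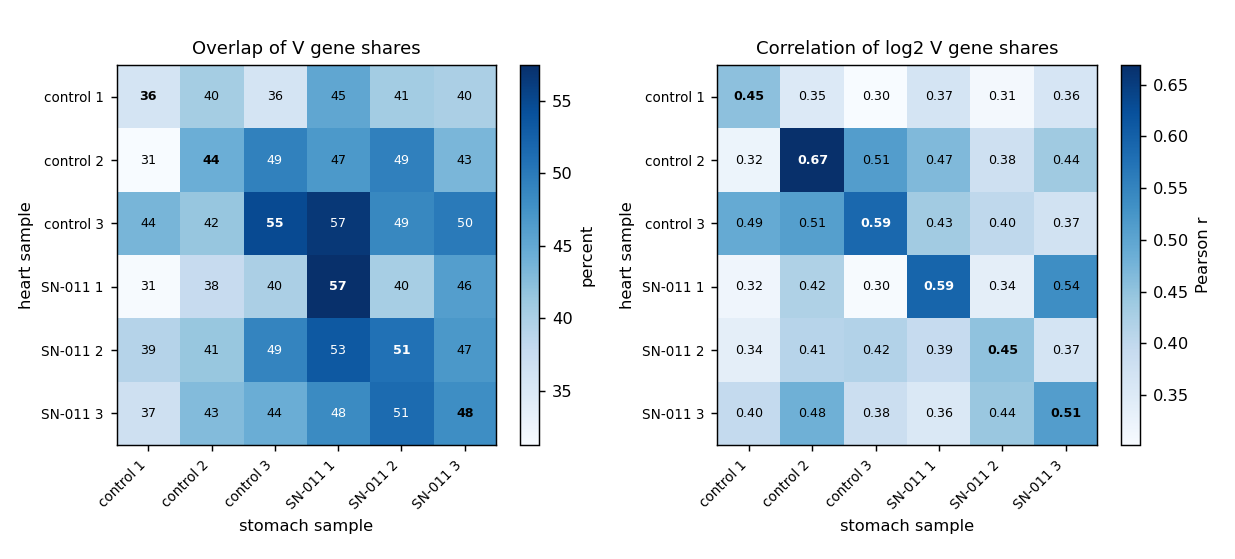
Likeness of V gene profiles between each heart sample (rows) and each stomach sample (columns), left as the percent of V counts shared and right as Pearson's r of log2 shares over 134 genes, with values of the same treatment and number in bold. The bold r values, 0.45 to 0.67, are the highest of their rows, whereas on the left only the bold value of SN-011 1 is.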

How the data were processed

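RNA-Seq of 4 tissues was analysed, 3 samples in each of 8 groups. The authors deposited raw counts per gene, without normalization, for 54532 genes per sample. The labels name HISAT2, HTSeq and mm10, whereas the study's methods name featureCounts in place of HTSeq, and both describe paired reads of 150 bases from polyA-selected RNA. Per the methods, only uniquely mapped reads were kept, which lowers the counts of V genes with close copies. Of the gene identifiers, 54495 are in GENCODE M21 (GRCm38), which gave symbols, biotypes and sequences.

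Groups came from the labels. The quasi-likelihood test of edgeR 4.0.16, run under R 4.3.3, was applied to 1 tissue at a time. Low genes were dropped by filterByExpr (a total of at least 15 and a count of at least 10), libraries were scaled by TMM, and p-values were adjusted after Benjamini and Hochberg over all genes, with a threshold of 0.05. Interactions came from 1 fit of 24 samples. The tests were checked on simulated data. Alternatives included DESeq2 1.42.0, edgeR's exact test, other scalings and filters, other limits on members, the replicate number as a block, and each sample left out. Tables were made with Python 3.11.15 (numpy 2.4.6 and pandas 2.3.3), intervals with scipy 1.17.1, sequence comparisons with Biopython 1.88 and figures with matplotlib 3.10.9.

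The members and gene lists were chosen with earlier results of these data known. V genes were named if they were among the 3 with the most counts of a locus, led a sample of 100 or more V counts, were past the threshold in a tissue (up to 5, or else the 2 smallest p), or lay next to the limit of 50 counts. Others are said to be named after their values were seen. Sums per sample, numbers detected and dominance were not tested.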

Additional observations from a re-analysis of the deposited data

How the results depend on the processing

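In the heart, the number of V genes past the threshold was 1 with edgeR's quasi-likelihood test, 6 with DESeq2, 5 with edgeR's exact test, 3 with library size alone, 34 with no filter on low counts and 0 with the joint fit of 24 samples. Over all genes these settings called 137, 1354, 918 and 249 of 16151, 1888 of 30288 and 1 of 19731. With single samples left out it was 0 to 8. In the stomach, where it was 0, it was 6 with DESeq2, 6 with the exact test, 13 with the joint fit and 26 with no filter (over all genes 2389 and 1835 of 17031, 2738 of 19731 and 1368 of 27444), and 0 to 1 with single samples left out. The cause was not tested. The call of Ighv1-81 in the heart held under 8 of 14 settings, with adjusted p of 6.22e-05 (exact test) to 0.578 (joint fit) and a log2 fold change of -3.91 to -3.11.

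Same-numbered control and SN-011 samples of a tissue varied together little, or in opposite directions, on average. Mean correlations of their deviations from the group means were -0.061 (heart), 0.068 (stomach), 0.031 (muscle) and -0.317 (tongue). Single values ran from -0.467 for number 3 in the tongue to 0.292 for number 2 in the stomach. No pairing of control with SN-011 samples was taken from the numbers. These values do not bear on samples of the same treatment and number in different tissues. With the replicate block, 2 V genes were called in the heart, among them Igkv9-124 with a log2 fold change of -2.58, and 0 in the stomach, against 242 of 16151 and 181 of 17031 genes. The difference between tissues gave 0 calls with and without the block.

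The difference in members detected in the heart, -15.3, was -26.0 for members of at least 3 counts, -4.67 for genes of at least 200 counts, -6.47 in 1000 V counts and 2.15, reversed, in 100 V counts. In the muscle it was -40.7 and became -23.0 at 3 counts or more, and the numbers at equal depth could not be compared between groups in muscle and tongue, where too few samples were deep enough. Without the V gene with the most counts in muscle, the V total in muscle gave a log2 ratio of -1.33 in place of -0.88 and the kappa ratio a difference of -9.85 in place of -5.02 per 100 Igkc counts. The heavy ratio in muscle differed by -2.46 in place of -4.14 with genes of at least 200 counts. The share of the leading gene in the heart differed by -4.09 percentage points within the kappa locus against -1.52 over all V genes.

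The number of hearts, of 6, whose most similar stomach had the same treatment and number was 1 by overlap of shares, 6 by correlation of log2 shares, 5 by Spearman's rho, 4 with kappa genes only, 4 with heavy genes only and 6 with deviations from the tissue mean, all but the first chosen after seeing the data. From stomach to heart it was 3 of 6 by overlap and 4 of 6 by correlation of log2 shares. Log2 fold changes of single genes reversed as follows. That of Igkv1-110 in the stomach was 0.26 with library size alone and -1.09 to 1.49 with single samples left out. In the heart, leaving out single samples gave -0.98 to 0.50 for Ighv1-82, -3.67 to 0.78 for Iglv2, -1.13 to 1.51 for Iglv3 and -1.90 to 0.95 for Igkv1-135, the highest value each time without control 3, and in the stomach -2.99 to 0.85 for Ighv1-64, the latter also without control 3. Depth limits muscle and tongue, where no V gene could be tested.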
